A study of Mus musculus with 46 samples.

Results

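The let-7 guide strands and miR-98-5p, which carries the same seed, were taken as a family of 9 mature miRNAs out of the 1881 mouse miRNAs on the array. They were chosen by name and not by any measured value, though earlier results of these data were known. Each array held total RNA from a piece of heart, liver or brain of a male C57BL6 mouse of an Il1a knock-out strain, and this genotype was common to all groups. Storage before stabilisation of the RNA was at 4 °C or room temperature (RT) and lasted 0, 1, 3, 6, 12, 24, 48 or 96 h, and the question was how storage and loss of RNA integrity act on the measured miRNA levels. Integrity was given as the RIN value, which runs from 10 for intact RNA down to 1 for fully degraded RNA. Of 46 arrays, that of unstored heart from the 4 °C series was left out because the study had judged it of low quality, so that 7 heart, 6 liver and 8 brain arrays of 4 °C and 8 arrays of each tissue at RT remained.

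All pieces of a tissue and temperature came from 1 organ, and their arrays were treated as 1 slide, which the labels do not name. The 3 organs of a temperature were taken from the same animal, so that slide, animal and temperature cannot be told apart within a tissue. No time point was measured a second time, and the p-values describe the spread among pieces of few organs rather than among animals.

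The let-7 miRNAs are among the most conserved small RNAs of animals and are abundant in differentiated tissue. They pair through their seed, bases 2 to 8 from the 5′ end, with sites in target mRNAs such as those of Lin28, Hmga2 and the Ras genes, and lower their output. Their precursors are held back in stem cells by the RNA-binding protein Lin28, and the levels of the mature strands rise as tissues, the brain in particular, mature.

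The mature sequences, from RefSeq on build GRCm38.p6, are shown because the members differ at so few bases that the way each behaved has to be read against them. Capitals mark the seed, which was GAGGUAG in all 9.
mmu-let-7a-5p: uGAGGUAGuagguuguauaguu
mmu-let-7b-5p: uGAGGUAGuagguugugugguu
mmu-let-7c-5p: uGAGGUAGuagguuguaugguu
mmu-let-7d-5p: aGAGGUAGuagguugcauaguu
mmu-let-7e-5p: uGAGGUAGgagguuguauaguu
mmu-let-7f-5p: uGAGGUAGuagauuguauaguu
mmu-let-7g-5p: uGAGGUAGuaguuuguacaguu
mmu-let-7i-5p: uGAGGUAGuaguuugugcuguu
mmu-miR-98-5p: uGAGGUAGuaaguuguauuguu

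All 9 are 22 bases long. Written with the base of let-7a-5p first and positions counted from the 5′ end, let-7c-5p differed from let-7a-5p by A19G, let-7e-5p by U9G and let-7f-5p by G12A. For let-7b-5p the differences were A17G and A19G, for let-7d-5p U1A and U16C, for let-7g-5p G12U and U18C, and for miR-98-5p G11A and A19U. The most distant from let-7a-5p was let-7i-5p, with G12U, A17G, U18C and A19U. Among the 36 pairs of members, 4 differed at 1 position and the largest number of differences was 6. Each member was measured by 2 probes of 15 spots each. Probe sequences were not analysed here, and how far the probe of a member also bound its relatives was not tested.

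Hairpins holding the 9 sequences lie at 12 places in GRCm38.p6. On chromosome 13, minus strand, let-7a-5p (48538239 to 48538260, hairpin Mirlet7a-1), let-7f-5p (48537889 to 48537910, Mirlet7f-1) and let-7d-5p (48536078 to 48536099, Mirlet7d) stand within a few kilobases of each other. A further copy of let-7a-5p is in Mirlet7a-2 on chromosome 9, 41536732 to 41536753, within the span of the long non-coding RNA gene Mir100hg. On chromosome 15, let-7c-5p (85706616 to 85706637, Mirlet7c-2) and let-7b-5p (85707325 to 85707346, Mirlet7b) lie 621 bases apart, hairpin to hairpin, within the span of the long non-coding RNA gene Lncppara. The other copy of let-7c-5p is in Mirlet7c-1 on chromosome 16, 77599672 to 77599693, next to Mir99a. For let-7e-5p the place is chromosome 17, 17830366 to 17830387, 367 bases from Mir125a and within the span of Spaca6. On chromosome X, within the span of Huwe1, a second copy of let-7f-5p (151912353 to 151912374, Mirlet7f-2) is followed by miR-98-5p (151913229 to 151913250, Mir98). The remaining members are let-7g-5p on chromosome 9, 106178846 to 106178867, within the span of Wdr82, and let-7i-5p on chromosome 10, 122985698 to 122985719. Mature let-7a-5p, let-7c-5p and let-7f-5p can thus come from 2 loci each, which the array does not separate.

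Levels are background-subtracted array signals after variance stabilizing normalization (VSN), which brings the arrays to a common scale in log2 units. Between 268 and 798 miRNAs were detected per array, 0 miRNA spots were saturated, and 815 miRNAs detected on at least 5 arrays entered the tests. The tissue labels were checked with marker miRNAs of liver (3), heart (4) and brain (3), each of which was higher on every array of its own tissue than on any other array. The summed level of the 3 blood markers miR-451a, miR-144-3p and miR-486a-5p ranged from 12.33 to 15.11 in heart, 6.37 to 11.14 in liver and 9.06 to 11.23 in brain. The 9 members were detected on all 45 arrays, except that let-7e-5p was not detected on the liver array of 96 h at RT. Over the 45 arrays the signals of the 2 probes of a member correlated with r of 0.993 to 0.999, given as a description. The liver array of 0 h at 4 °C stood apart: although its RIN was 9.1, it had only 268 detected miRNAs, and let-7a-5p was at 8.91 there against 10.72 to 11.49 on the 5 other liver arrays of 4 °C.

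In tissue with RIN values over 6, the family was highest in brain and lowest in liver. For let-7a-5p the 14 brain arrays ran from 12.16 to 13.62 (median 12.68), the 13 heart arrays from 11.66 to 12.27 (median 11.92) and the 6 liver arrays from 8.91 to 11.49 (median 11.13). Liver did not overlap with the other tissues, while the lowest brain arrays fell within the range of heart. With limma, 9 of 9 members were higher in brain than in heart at an adjusted p under 0.05, where 48.7% of all miRNAs tested were called higher. Against liver, 9 of 9 were higher in brain, where 58.7% of all were. In liver 8 of 9 were lower than in heart, with 45.6% of all called lower. The medians over the members were 0.91 log2 units for brain minus heart, -1.43 for liver minus heart and 2.36 for brain minus liver, beside 0.44, -0.60 and 1.12 over all 815. The shares over all miRNAs are so large that the counts alone do not set the family apart.

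**Figure D1:**
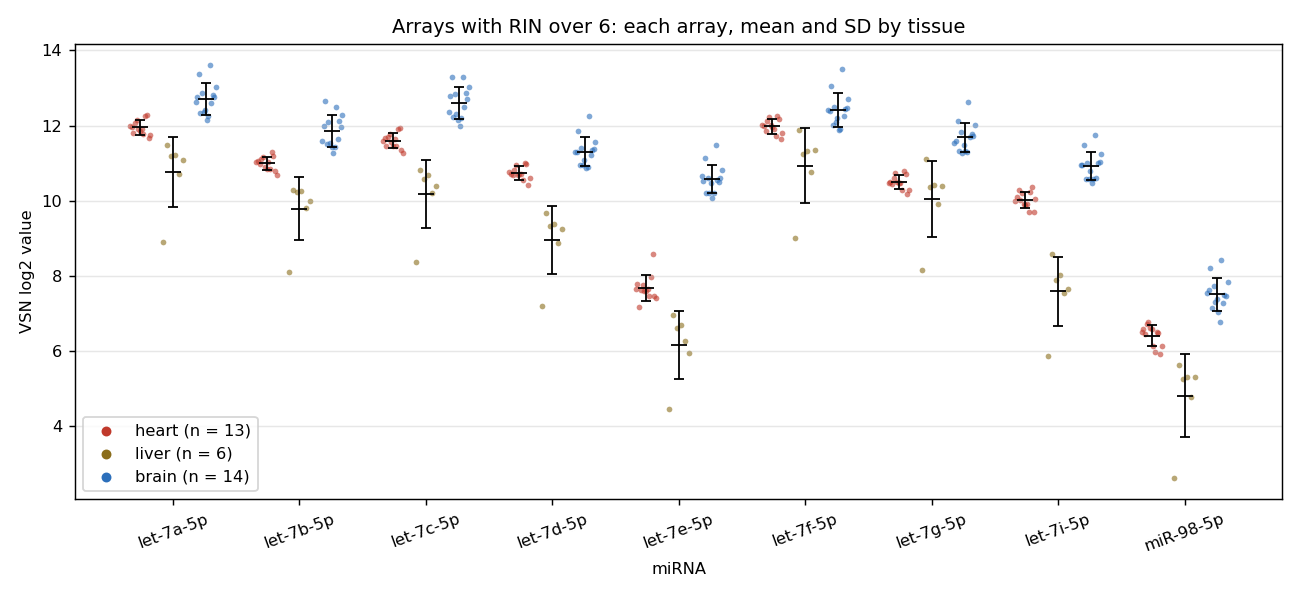
VSN log2 levels of the 9 miRNAs (x axis) on arrays with RIN over 6, each point 1 array, with mean and SD in black for 13 heart, 6 liver and 14 brain arrays. The gap between brain and heart is widest for let-7e-5p, 10.58 against 7.67, and the lowest liver point of each miRNA is the array of 0 h at 4 °C.

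The size of the tissue difference was far from equal within the family. For let-7e-5p, transcribed beside miR-99b and miR-125a, the brain arrays ran from 10.07 to 11.49 (median 10.54), the heart arrays from 7.17 to 8.59 (median 7.63) and the liver arrays from 4.45 to 6.95 (median 6.43). No tissue overlapped another. The brain level was 2.91 ± 0.191 (SE) log2 units above heart (adjusted p = 8.79e-16, limma) and 4.43 ± 0.241 above liver (adjusted p = 5.1e-18), the largest of the 9 in both contrasts. In heart, let-7f-5p was the member nearest to its brain level, at 11.98 ± 0.190 (SD, n = 13) against 12.42 ± 0.445 (SD, n = 14), a difference of 0.44 ± 0.198 (SE). Its adjusted p of 0.0464 in limma rose to 0.0606 with the slide as a random block, and the difference was -0.021 after quantile normalization. The values of mmu-let-7e-5p and mmu-let-7f-5p thus bracket the family in brain against heart.

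A strong deficit in liver was seen for let-7i-5p. Its liver arrays lay between 5.87 and 8.56 (median 7.77), below all heart arrays (9.69 to 10.36, median 10.02) and all brain arrays (10.46 to 11.75, median 10.95). Liver minus heart was -2.44 ± 0.232 (SE, adjusted p = 5.31e-11, limma). By contrast, let-7g-5p ranged from 8.15 to 11.10 (median 10.37) in liver and from 10.18 to 10.79 (median 10.48) in heart. These ranges overlapped, and the difference of -0.45 ± 0.244 did not pass (adjusted p = 0.119, limma). Without the liver array of 0 h at 4 °C it was -0.066 (let-7g-5p, adjusted p = 0.758).

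The other members were graded between these. Heart and liver means were 10.99 ± 0.179 (SD, n = 13) and 9.78 ± 0.838 (SD, n = 6) for let-7b-5p, and 11.60 ± 0.203 and 10.17 ± 0.905 for let-7c-5p. For let-7d-5p they were 10.74 ± 0.175 and 8.95 ± 0.894, and for miR-98-5p 6.41 ± 0.278 and 4.80 ± 1.11. Brain means of the same 4 were 11.86 ± 0.432, 12.61 ± 0.425, 11.31 ± 0.388 and 7.51 ± 0.438 (n = 14). The liver values include the array of 0 h at 4 °C. Leaving that array out kept 8 of 9 calls against heart and 9 of 9 against brain. On the arrays of 4 °C alone, brain exceeded heart for 6 of 9, since let-7a-5p, let-7d-5p and let-7f-5p did not pass (highest adjusted p = 0.386, limma).

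The direction against heart rested on how the arrays were scaled. After quantile normalization liver minus heart turned above 0 for let-7a-5p, let-7b-5p, let-7c-5p, let-7f-5p and let-7g-5p, at 0.14, 0.098, 0.0078, 0.50 and 1.11, and stayed below 0 for let-7d-5p, let-7e-5p, let-7i-5p and miR-98-5p. Of those turned, let-7f-5p and let-7g-5p were called higher in liver (adjusted p = 9.24e-06 and 3.41e-11, limma). Brain minus liver then turned below 0 for let-7f-5p, to -0.52 (adjusted p = 1.76e-06, limma), and for let-7g-5p, to -0.20. With normexp liver minus heart of let-7g-5p was 0.25 (adjusted p = 0.0448, limma). Levels of the blood markers were also higher in heart than in liver, as given above, and their part in these differences was not tested.

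Ratios within an array are less open to scaling, so each member was also set against let-7a-5p on the same array. The log2 ratio of let-7i-5p to let-7a-5p was -1.93 ± 0.156 (SD, n = 13) in heart and -1.78 ± 0.102 (SD, n = 14) in brain, but -3.18 ± 0.177 (SD, n = 6) in liver. The liver ratios, -3.42 to -2.93, did not overlap with the -2.08 to -1.51 of heart or the -1.98 to -1.61 of brain. For let-7e-5p the ratio was -2.14 ± 0.116 in brain and -4.28 ± 0.216 in heart, again without overlap. For let-7g-5p it was highest in liver, -0.71 ± 0.167, then brain, -1.03 ± 0.110, and heart, -1.46 ± 0.0534. The ratio of let-7b-5p moved least, with means of -0.96 ± 0.0754 in heart, -0.99 ± 0.141 in liver and -0.86 ± 0.120 in brain, and its ranges overlapped among all tissues.

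During storage of liver at RT the whole family was lost, and late. From 0 to 96 h, let-7a-5p was at 11.07, 11.77, 11.78, 11.30, 10.87, 9.33, 7.69 and 5.99. Over the same 8 arrays let-7f-5p was at 11.35, 12.00, 11.97, 11.81, 11.26, 9.43, 7.72 and 5.48, and let-7i-5p at 7.65, 8.57, 8.66, 8.66, 8.01, 6.18, 5.09 and 4.69. At 6 h let-7a-5p and let-7f-5p lay within the range of the first 3 arrays and let-7i-5p at its upper end, at 12 h let-7a-5p and let-7f-5p were slightly below it, and from 24 h on all 3 were below it on every array. Against the mean of the arrays of 0, 1 and 3 h, the median change of the 9 members was -0.17, -0.51, -2.22, -4.06 and -5.55 after 6, 12, 24, 48 and 96 h. Over all 815 miRNAs the medians were 0.31, 0.29, 0.40, 0.74 and 0.64.

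**Figure D2:**
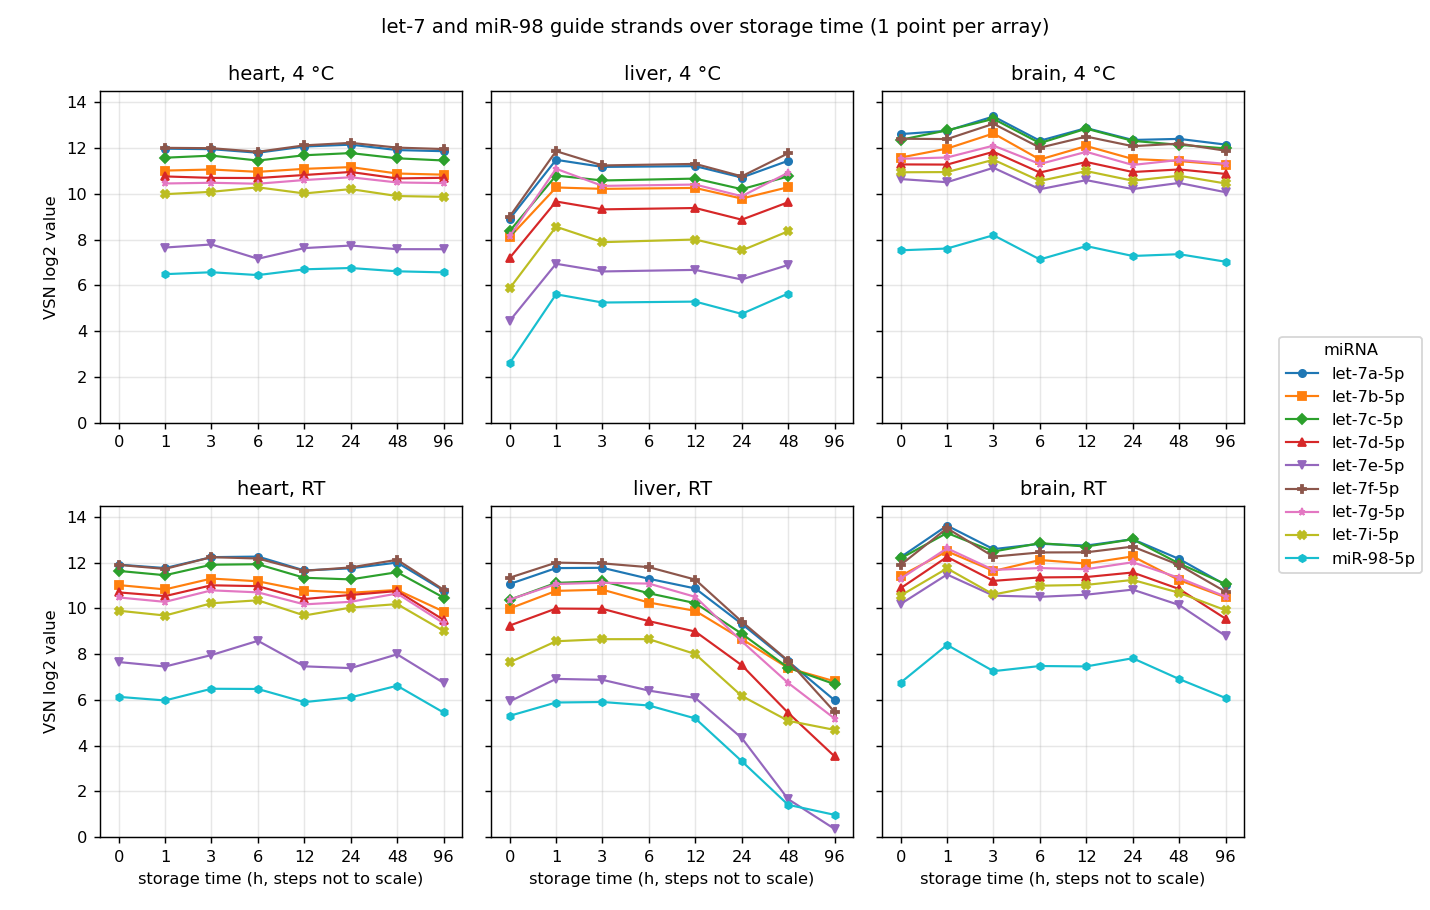
VSN log2 level (y axis) of the 9 miRNAs by storage time in hours (x axis, steps not to scale), for heart, liver and brain at 4 °C (top) and RT (bottom), each point 1 array. In liver at RT let-7a-5p falls from 11.78 at 3 h to 5.99 at 96 h, while in heart and brain at RT the lowest point, 10.78 and 11.03, is the last one.

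At 96 h the loss from that starting mean was 46.9-fold for let-7a-5p, 78.4-fold for let-7f-5p, 74.0-fold for let-7d-5p and 51.0-fold for let-7g-5p. It was smaller for let-7c-5p (18.5-fold), let-7b-5p (13.1-fold) and let-7i-5p (12.1-fold). For let-7e-5p, not detected on this array, the measured value was 74.4-fold lower on the VSN scale, a size that depended on the scaling. On this array miR-98-5p carried the detection flag at 0.98, 26.4-fold below its starting mean, but like let-7e-5p it had a probe with 0 of 15 spots well above background. Over the 3 starting arrays the SD lay between 0.34 for miR-98-5p and 0.56 for let-7e-5p and let-7i-5p on the log2 scale, so that the changes from 24 h on exceeded it for every member, while those at 6 h did not reach it. There was 1 array per time point, and no test was made of a single time.

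RNA integrity had already gone when these levels were still high. The liver pieces of 6, 12, 24, 48 and 96 h at RT had RIN values of 2.8, 2.7, 2.7, 2.4 and 2.3, and let-7a-5p ran from 11.30 to 5.99 across them. Over the same 5 arrays, let-7b-5p was at 10.26, 9.90, 8.66, 7.40 and 6.82, and let-7e-5p at 6.41, 6.09, 4.34, 1.66 and 0.36. A liver piece with a RIN of 3.4, stored for 48 h at 4 °C, held let-7a-5p at 11.45. Blood markers moved the same way on these arrays, their summed level being 9.03 at 0 h and 6.37 at 96 h of RT, and their part was not tested.

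The loss in liver was seen under every scaling tried. At 96 h all 9 members were below the mean of 0 to 3 h with no scaling between arrays (median -3.63), with 75th percentile scaling (-5.47), with quantile normalization (-6.09), with normexp background correction (-3.92) and in the deposited table (-5.54). The median over all miRNAs tested depended on the scaling, at 2.09 with none, 0.64 with VSN, 0.24 with 75th percentile scaling, 0 with quantile normalization and -1.39 with normexp. Over the miRNAs detected on all arrays it was -1.48 with VSN.

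**Figure D3:**
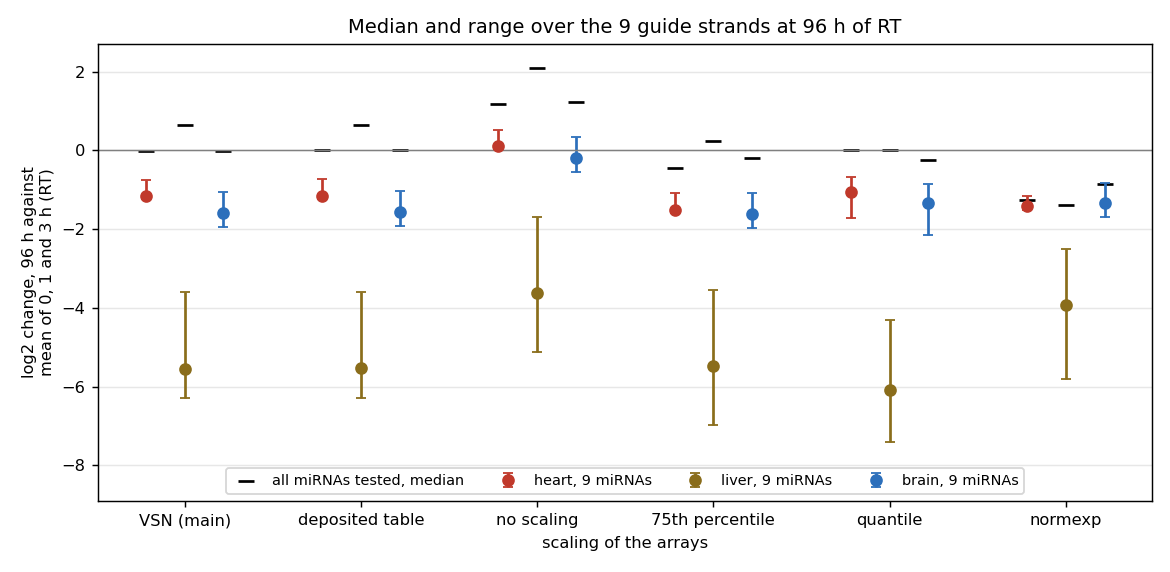
Change of the 9 miRNAs at 96 h of RT against the mean of 0, 1 and 3 h in log2 units (y axis) under 6 ways of scaling the arrays (x axis), with points for the median over the 9, bars for their lowest and highest, and black dashes for the median of all 815 miRNAs. Liver is below 0 in each, whereas with no scaling heart lies at 0.11 and brain at -0.20.

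Within the degrading liver the members did not fall in step. The log2 ratio of let-7b-5p to let-7a-5p was -1.01 ± 0.0582 (SD, n = 3) over 0 to 3 h and 0.83 at 96 h, a gain of 1.84. That of let-7c-5p gained 1.34 and that of let-7i-5p 1.95. Ratios of let-7d-5p and let-7f-5p to let-7a-5p dropped by 0.66 and 0.74, and that of let-7g-5p moved by -0.12. For miR-98-5p the ratio was 0.83 higher at 96 h, a value that includes the probe with no spot above background. No exact change is given for let-7e-5p, which was below detection there. The gains of let-7b-5p, let-7c-5p and let-7i-5p kept their sign under all 6 scalings, from 1.59 to 1.84, 1.18 to 1.35 and 1.78 to 2.11. The shifts of let-7d-5p and let-7g-5p turned above 0 with normexp, to 0.17 and 0.051, and that of miR-98-5p ran from 0.15 to 2.68.

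**Figure D4:**
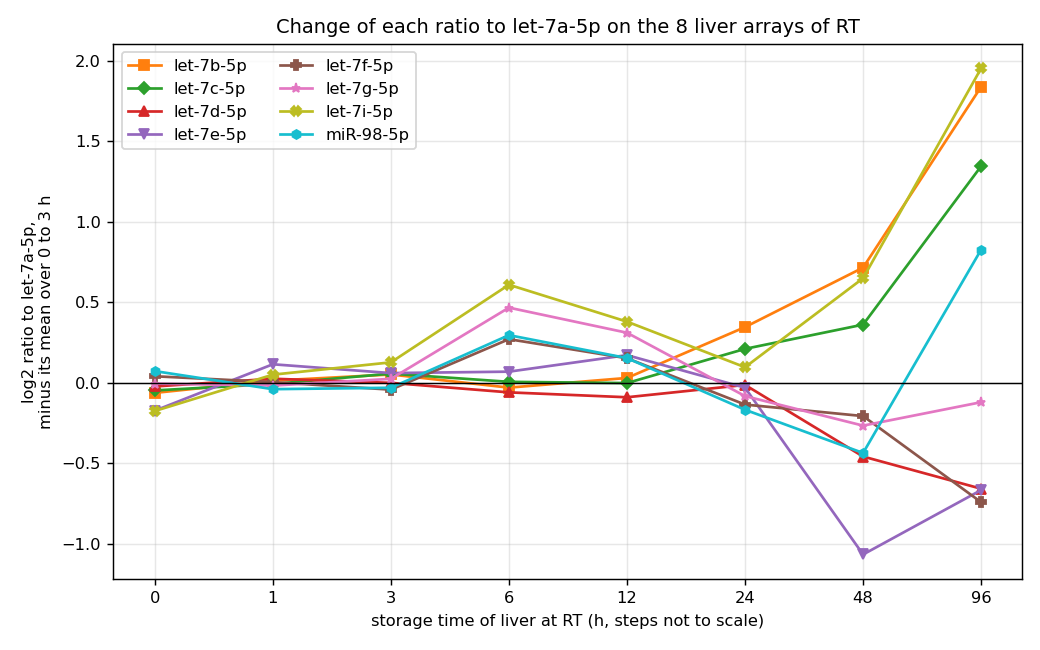
Change of each member's log2 ratio to let-7a-5p (y axis) on the 8 liver arrays of RT by storage time (x axis, steps not to scale), as the ratio minus its mean over 0, 1 and 3 h. The lines spread at 48 and 96 h, where let-7i-5p and let-7b-5p end highest, 1.95 and 1.84 above their start, and the last point of let-7e-5p is below detection.

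Over all 45 arrays, with tissue in the model, the ratio to let-7a-5p was related to RIN for 1 of 8 members at an adjusted p under 0.05, where 59.3% of all miRNAs were called in either direction. That member was let-7i-5p, whose slope was -0.087 ± 0.0254 (SE) log2 units per RIN unit, the ratio being higher at lower integrity (adjusted p = 0.00276, limma). With quantile normalization (adjusted p = 0.000257) or with let-7b-5p in place of let-7a-5p (adjusted p = 0.0459) the 1 member called was let-7e-5p instead. The median slope was -0.030 for the 8 members and -0.24 over all 814. Without the liver arrays of 24 to 96 h at RT, let-7g-5p (-0.053) and miR-98-5p (-0.047) passed as well.

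In heart at RT, let-7a-5p was at 11.92, 11.77, 12.24, 12.27, 11.66, 11.75, 12.01 and 10.78 from 0 to 96 h, with the array of 96 h below the other 7. The piece of 48 h had a RIN of 4.6 and the piece of 96 h one of 2.2. At 48 h the median change of the 9 members in heart was 0.13, and at 96 h it was -1.16, from -1.25 for let-7d-5p to -0.75 for miR-98-5p. Brain arrays had let-7a-5p at 12.24, 13.62, 12.59, 12.83, 12.75, 13.03, 12.16 and 11.03. The value of 96 h, at a RIN of 3.3, was again the lowest, and the array of 1 h was the highest. The 3 starting arrays of brain differed widely, with an SD of 0.57 to 0.85 across the members. The median change in brain was -0.60 at 48 h and -1.59 at 96 h, the largest being -1.95 for let-7e-5p and the smallest -1.05 for let-7i-5p. All 9 members were lower at 96 h in both tissues, where 50.1% of the 815 miRNAs in heart and 50.2% in brain were lower. The miRNAs detected on all arrays also fell, with medians of -0.52 in heart and -0.60 in brain. With normexp the medians over all 815 were -1.26 in heart and -0.85 in brain, beside -1.41 and -1.35 for the members. With no scaling between arrays 0 of 9 were lower in heart and 5 of 9 in brain.

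The fall over time at RT differed between tissues for 9 of 9 members (limma, F-test of tissue by time over 24 arrays), where 24.2% of all miRNAs were called. For let-7a-5p the slope was -0.062 ± 0.00561 (SE) log2 units per hour in liver, -0.019 ± 0.00561 in brain and -0.011 ± 0.00561 in heart (adjusted p = 0.000256). With no scaling 7 of 9 were called, without let-7b-5p and let-7i-5p, and with normexp 7 of 9, without let-7e-5p and miR-98-5p. The steepest liver slope was that of let-7e-5p, -0.072 ± 0.00690, and the shallowest that of let-7b-5p, -0.043 ± 0.00556. Brain slopes ran from -0.019 to -0.011 and heart slopes from -0.012 to -0.0058 across the 9. Pooled over the tissues, 7 of 9 members fell with hours at RT, where 17.7% of all miRNAs did, with a median r of -0.54 against 0.078 over all. The r ran from -0.62 for let-7f-5p to -0.36 for let-7i-5p, and let-7e-5p and let-7i-5p did not pass (adjusted p = 0.1 and 0.134). With tissue as a block 9 of 9 were called, with r of -0.78 to -0.67. Spearman's rho was -0.43 to -0.14, and without the 3 arrays of 96 h r was -0.46 to -0.24. Without the 3 last liver arrays, 1 of 9 was called, let-7f-5p (r = -0.56).

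Pooled over the tissues, the family showed no trend with storage at 4 °C, where liver had no array of 96 h. Over 21 arrays, 0 of 9 members were related to hours at an adjusted p under 0.05 and 0 at an unadjusted one, where 5.28% of all miRNAs were called. Pearson's r was 0.023 to 0.11, rho was -0.061 to 0.056, and permutation p-values for r were 0.611 to 0.919. With tissue as a block r was -0.17 to 0.016, with 0 called. In heart at 4 °C, let-7a-5p lay between 11.80 and 12.15 on 7 arrays, and in brain between 12.16 and 13.39 on 8. The brain array of 96 h, with a RIN of 7.3, was the lowest of these 8 at 12.16. The median change of the 9 members on it was -0.74 against the mean of 0 to 3 h. In brain all 9 were below that mean at 6, 24, 48 and 96 h, with medians of -0.57, -0.54, -0.42 and -0.74. At 12 h 6 of 9 were, with a median of -0.061. Over all 815 miRNAs 53.9%, 47.0%, 54.1%, 43.4% and 53.9% were below it at 6, 12, 24, 48 and 96 h. The SD over the 3 starting arrays was 0.31 for let-7i-5p to 0.53 for let-7b-5p. Among these 3 the array of 3 h was the highest for let-7a-5p, at 13.39. Over all 815 the medians at 6, 12, 24, 48 and 96 h were -0.048, 0.035, -0.046, 0.067 and -0.10.

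Across all tissues, higher RIN values went with higher levels. Pearson's r with RIN over 45 arrays was positive for 9 of 9 members at an adjusted p under 0.05, where 33.7% of all miRNAs tested were called positive. The r ran from 0.46 for let-7g-5p (permutation p = 0.00209) to 0.61 for let-7d-5p (permutation p = 7e-05), with a median of 0.55 against -0.034 over all 815. Under Bonferroni adjustment 4 of 9 were called, namely let-7a-5p, let-7b-5p, let-7c-5p and let-7d-5p, where 10.4% of all were. Spearman's rho was lower, between 0.090 for let-7g-5p (permutation p = 0.557) and 0.42 for let-7b-5p (permutation p = 0.00437). With the 2 arrays of most extreme RIN removed, r was 0.32 to 0.55. The arrays form clusters by tissue and integrity, so that the pooled values rest on few arrays: without the liver arrays of 24 to 96 h at RT, 1 of 9 was called, let-7d-5p (r = 0.38), and on the arrays with RIN over 6 alone r was -0.30 to -0.017 with 0 called. With the slide as a block 4 of 9 were called, and with tissue as a block 8 of 9, all but let-7i-5p (adjusted p = 0.0582), with r of 0.30 to 0.43. Of all 815 miRNAs, 562 were called in either direction with the slide block and 660 with the tissue block.

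**Figure D5:**
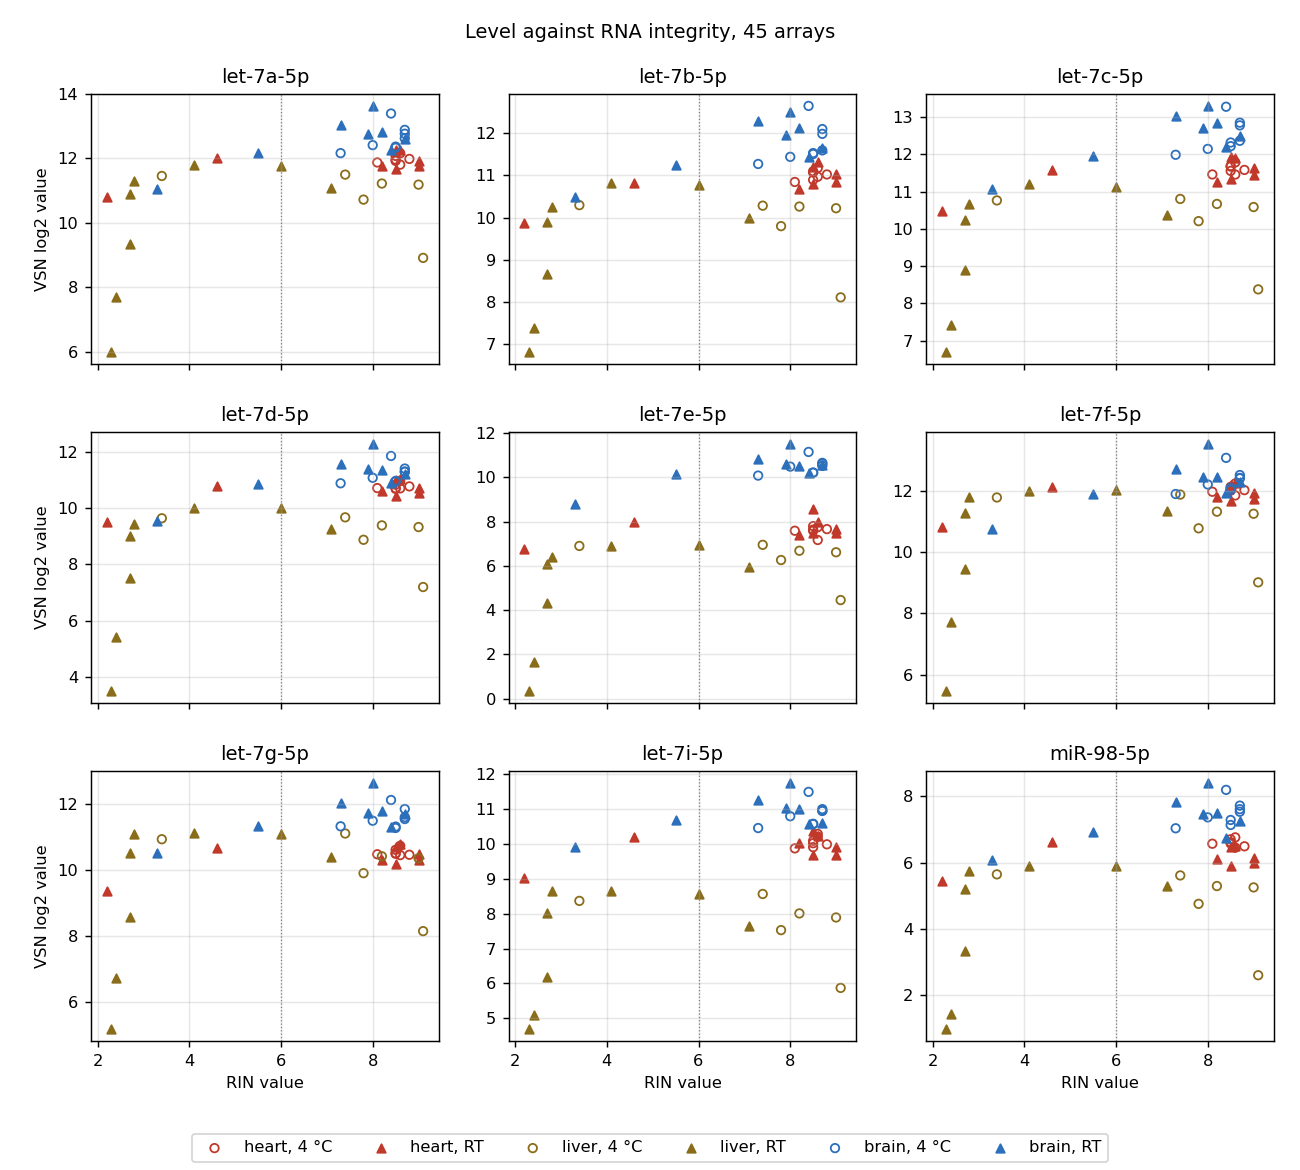
VSN log2 level (y axis) against RIN value (x axis) for each of the 9 miRNAs on 45 arrays, coloured by tissue, with open circles for 4 °C and filled triangles for RT and a dotted line at a RIN of 6. The lowest liver points lie at RIN values of 2.3 to 2.7, close to liver points that are still high, such as let-7a-5p at 11.30 with a RIN of 2.8.

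Within heart and within brain the relation with RIN was carried by the end points. In heart 7 of 9 members were called positive (29.3% of all miRNAs), with r of 0.39 to 0.81 over 15 arrays. Permutation p-values were 0.00796 to 0.164, and those of let-7f-5p, let-7g-5p and let-7i-5p, called above, were 0.053, 0.0523 and 0.0613. With the 2 arrays of most extreme RIN removed r was -0.29 to 0.26. In brain 8 of 9 were called (30.9% of all), with r of 0.50 to 0.71 over 16 arrays and permutation p-values of 0.00809 to 0.0613, and without the 2 arrays farthest from the median r was -0.17 to -0.0084. In liver 0 of 9 passed, adjusted or not, over 14 arrays (11.2% of all called), with r of 0.25 to 0.44 and permutation p-values of 0.123 to 0.397. Leaving out the 2 farthest liver arrays gave 0.45 to 0.54. Whether the relation with RIN differed between tissues was not tested. The heart and brain values depended on scaling. With no scaling between arrays r was -0.58 to -0.44 in heart and -0.26 to 0.18 in brain, and 0 of 9 were called positive in either. In heart let-7i-5p and miR-98-5p were then called negative instead (Pearson's r, adjusted p = 0.0475 and 0.0424).

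Groups of low and high integrity, split at a RIN of 6, overlapped in liver for every member. The 8 liver arrays of low RIN had let-7a-5p between 5.99 and 11.78 (median 11.09) and the 6 of high RIN between 8.91 and 11.49 (median 11.13). An exact Wilcoxon-Mann-Whitney test called 0 of 9 members lower in liver, and 0 at an unadjusted p under 0.05, where 2.94% of all miRNAs were called lower, and limma also called 0. The mean differences were -1.20 for let-7e-5p to -0.31 for let-7i-5p. Without the liver arrays of 24 to 96 h at RT all 9 were positive, 0.49 to 0.89, with 0 called. In brain 3 of 9 were called lower, where 18.7% of all miRNAs were. These were let-7b-5p by 0.99 and let-7c-5p by 1.09 log2 units, and let-7d-5p (exact test, adjusted p = 0.0354 for each). The low arrays of let-7d-5p, at 9.56 and 10.85, lay below the 14 others at 10.87 to 12.25. At an unadjusted p under 0.05 there were 7 of 9 in brain, beside 502 of all 815 miRNAs in either direction. In heart 0 of 9 were called, and 0 unadjusted (13.1% of all). With 2 arrays of low RIN each, the smallest exact p was 0.0167 in brain and 0.019 in heart.

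Other transcripts that belong with the family were read from the same tests. The seed was shared by mmu-let-7k and mmu-miR-1961, and mmu-let-7j differed in it.
mmu-let-7k: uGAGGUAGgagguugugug
mmu-let-7j: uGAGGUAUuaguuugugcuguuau
mmu-miR-1961: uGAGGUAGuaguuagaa

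Of these, miR-1961 was detected on 0 of the 45 arrays and let-7j on 3 liver arrays. By contrast, let-7k was detected on all 16 brain arrays, 4 of 15 heart arrays and 3 of 14 liver arrays. These 3 came from liver kept at RT for 24, 48 and 96 h, where let-7k was at 3.37, 3.20 and 2.20, while the other 11 liver arrays lay between -3.33 and 1.91 without detection. In liver the relation of let-7k with RIN was negative (r = -0.69, adjusted p = 0.0153), the sign opposite to that of the 9 members, and likewise in heart (r = -0.77, adjusted p = 0.00173). In brain, where let-7k was detected throughout, r was -0.44 and did not pass (adjusted p = 0.112). Values below detection entered the correlations in liver and heart. On the same 3 liver arrays let-7e-5p, whose sequence begins like that of let-7k, was at 4.34, 1.66 and 0.36.

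Of 10 other arms (the 3p strands) on the array, 7 entered the tests. Their r with RIN over 45 arrays was called positive for 5 of 7 and negative for 0, with a median of 0.71, where 33.7% of all miRNAs were called positive and the median over all was -0.034. Among the partners made from the same transcripts, miR-99a-5p (beside let-7c), miR-100-5p and miR-125b-5p (beside let-7a), and miR-99b-5p and miR-125a-5p (beside let-7e), r with RIN was 0.63, 0.61, 0.56, 0.65 and 0.62, called for each. Brain exceeded heart for miR-125a-5p by 2.61 (adjusted p = 4.52e-16, limma) and for miR-99b-5p by 1.45 (adjusted p = 7.34e-10), next to the 2.91 of their neighbour let-7e-5p. For miR-99a-5p brain minus heart was -0.26 and did not pass (adjusted p = 0.173), while let-7c-5p was 1.01 higher in brain (adjusted p = 1.2e-05).

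After centring each miRNA within tissue, the 36 pairs of members correlated over the 45 arrays with a median r of 0.975, from 0.940 for let-7e-5p with let-7i-5p to 0.997 for let-7a-5p with let-7d-5p. Of 172 other miRNAs detected on all arrays, the 5 whose centred levels were most like the mean of the members were miR-107-3p (r = 0.991), miR-126a-3p (0.987), miR-100-5p (0.983), miR-22-5p (0.983) and miR-23b-3p (0.982). These values are descriptions over arrays that share organs and, as treated here, slides.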

How the data were processed

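Total RNA of 46 tissue pieces was hybridised to 1-colour Agilent mouse miRNA arrays, and groups were taken from tissue, temperature, time and RIN in the labels. The spot intensity values were deposited as written by Agilent Feature Extraction 10.10.1.1. The authors also deposited log2 values after background correction and VSN. VSN was refitted here on the scanner signals of 45 arrays with code written for this purpose, and a refit over all 46 differed from the deposited table by at most 0.0104. The 815 miRNAs with a detection flag on at least 5 arrays were tested. Arrays labelled 12 h are given as 14 h in the methods, and both were run.

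Pearson's r with RIN or hours (100000 permutations for the members), exact Wilcoxon-Mann-Whitney tests at a RIN of 6, and limma 3.58.1 in R 4.3.3 for tissue contrasts, ratios and slopes were used. P-values are two-sided and Benjamini-Hochberg adjusted over all miRNAs tested, with a threshold of 0.05. Python 3.11.15, numpy 2.4.6, scipy 1.17.1, pandas 2.3.3 and matplotlib 3.10.9 were used for the rest. The procedures were tested on simulated data with 200 of 815 miRNAs changed. There the exact test recovered no planted change in heart or brain, each with 2 arrays of low RIN. With so few changed, its smallest p, 0.0167 in brain and 0.019 in heart, could not pass the adjustment, so this outcome was fixed in advance. In the measured data it called 384 miRNAs in brain and 413 in heart, in either direction. Alternatives were the deposited table, no scaling, 75th percentile scaling and quantile normalization (signals floored at 1), normexp on median spot and background signals (offset 50), detection on 10 arrays, Spearman's rho, Bonferroni adjustment, tissue, slide or animal blocks and left-out arrays.

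The miRNAs named are the 9 members, others with the same seed and let-7j, cluster partners of let-7 genes, the other arms as a count, and the 5 miRNAs most like the members' mean. Members and lists were chosen with earlier results of these data known. The number of arrays limits the precision.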

Additional observations from a re-analysis of the deposited data

Results flagged for a closer look

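Among 54 sets of arrays of 1 member, tissue and temperature, 13 held an array far from the others by Dixon's test, which chance marks in about 1 of 20 sets. In heart at RT the array of 96 h was far below the rest for let-7a-5p (10.78), let-7b-5p (9.87), let-7c-5p (10.48), let-7d-5p (9.50), let-7f-5p (10.82) and let-7g-5p (9.36). In liver at 4 °C the array of 0 h was far below for let-7a-5p (8.91), let-7b-5p (8.11), let-7c-5p (8.38), let-7d-5p (7.20), let-7e-5p (4.45) and miR-98-5p (2.60). Heart stored for 6 h at 4 °C gave a low value for let-7e-5p alone among the 9 (7.17). The members share these arrays, so the marks are not independent.

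The slope over hours at RT differed between heart, liver and brain for each member in limma's interaction test over 24 arrays. The adjusted p was 0.000256 for let-7a-5p, 0.0103 for let-7b-5p, 0.00446 for let-7c-5p, 7.96e-05 for let-7d-5p and 0.000256 for let-7e-5p. It was 7.96e-05 for let-7f-5p, 0.00019 for let-7g-5p, 0.0113 for let-7i-5p and 0.00214 for miR-98-5p. The liver slope was the steepest of the 3 for all 9. Tissue and the set of arrays treated as a slide cannot be told apart in this comparison.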

How the results depend on the processing

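Of 155 recomputed counts of members called, 126 were within 1.5 times the reported count and 29 were not; the causes were not tested. With no scaling, 0 members were called in the reported direction for RIN within heart, RIN within brain, hours at RT and low integrity in brain. In the opposite direction, let-7i-5p and miR-98-5p passed for RIN within heart (Pearson's r, adjusted p = 0.0475 and 0.0424). Likewise miR-98-5p passed for low integrity in heart (exact test, adjusted p = 0.0379). Within-heart r then turned to -0.47 (let-7a-5p), -0.48 (let-7b-5p), -0.47 (let-7c-5p), -0.44 (let-7d-5p), -0.50 (let-7f-5p), -0.51 (let-7g-5p), -0.57 (let-7i-5p) and -0.58 (miR-98-5p), within-brain r of let-7g-5p to -0.16, and the heart difference of miR-98-5p at low integrity to 0.74. RIN within liver gave 2 calls with 75th percentile scaling, 6 with quantile normalization and 5 with normexp. Over all 815 miRNAs 401, 398 and 653 were then called in either direction. Low integrity gave 9, 6 and 9 calls in heart under these, 9, 6 and 0 in brain, and, in liver, 1 with percentile scaling and 2 with normexp. Quantile normalization left 3 of 9 lower in liver than in heart and turned that difference to 0.14 (let-7a-5p), 0.098 (let-7b-5p), 0.0078 (let-7c-5p), 0.50 (let-7f-5p) and 1.11 (let-7g-5p). It turned brain minus liver to -0.52 (let-7f-5p) and -0.20 (let-7g-5p) and brain minus heart to -0.021 (let-7f-5p), and normexp turned liver minus heart of let-7g-5p to 0.25. Bonferroni adjustment left 4 calls for RIN, 5 for tissue by time, and 0 for RIN within heart or brain, hours at RT, low integrity in brain and the ratio to let-7a-5p. The slide block left 4 calls for RIN (562 of all 815 in either direction), and Spearman's rho 0 for hours at RT. On arrays with RIN over 6 there were 0 calls, with r of -0.12 (let-7a-5p), -0.090 (let-7b-5p), -0.082 (let-7c-5p), -0.041 (let-7d-5p), -0.13 (let-7e-5p), -0.17 (let-7f-5p), -0.30 (let-7g-5p), -0.017 (let-7i-5p) and -0.14 (miR-98-5p). Without the liver arrays of 24 to 96 h at RT, an alternative chosen after seeing the data, as was omitting unstored liver of the 4 °C series, calls were 1 for RIN, 1 for hours at RT and 3 for the ratio. Leaving out each liver array in turn gave from 0 to 0 calls at low integrity. With the animal, or the animal and hour, as a replicate block (also chosen after seeing the data) the tissue contrasts kept their counts, 9 for brain against heart, 8 for liver against heart and 9 for brain against liver.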
